A study of Rattus norvegicus with 9 samples.

Results

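Alveolar type 1 cells are the thin, flat epithelial cells that cover most of the lung's gas exchange surface, and 10 genes that mark them are described here in the lungs of rats with metabolic syndrome (MetS) and of controls. The genes are Ager, Hopx, Pdpn, Aqp5, Rtkn2, Emp2, Akap5, Clic5, Cldn18 and Gprc5a, a list of known markers whose rule uses no measured value. Each of the 10 was named by exactly 1 probe of the array (a probe here is 1 row of the table, which stands for 1 transcript cluster), so 10 of the 14497 genes with a single symbol are members. Lung RNA of 7 Wistar rats was measured on Affymetrix arrays, from 3 MetS animals and 4 controls. From weaning and for 24 weeks the MetS animals had a 30% sucrose solution as their sole drink, while the controls drank water, and both groups ate the same standard chow, which itself holds some sugar. All animals were fasted for 7 hours before they were killed. The labels give the MetS rats as male and no sex for the controls; of 6 genes that tell sex 0 could be matched to a probe by symbol, so sex was not analysed here. The labels give no body weight, glucose or blood pressure, so how marked the syndrome was in each rat is not analysed here.

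A type 1 cell shares a basement membrane with the capillary beneath it, and the barrier that the cells form together lets gases through while holding water and solutes back. In the adult lung new type 1 cells can arise from alveolar type 2 cells, the surfactant producers. These flatten and switch on the type 1 genes through a transitional state marked by keratins such as Krt8. Loss of the type 1 genes, or a rise in transitional genes, is a known sign of alveolar injury. The 10 genes cover different parts of that cell. Ager and Pdpn code for surface proteins, Cldn18, Aqp5, Emp2 and Clic5 for proteins of junctions and membranes, Akap5, Gprc5a and Rtkn2 for signalling proteins, and Hopx for a transcriptional cofactor.

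The RefSeq promoter table (assembly GRCr8) held a window for 9 of the 10 genes, all but Gprc5a. The 250 bases before each gene's start were searched on both strands for 5 short motifs, to see what the genes share besides the cell that makes them. The GC box GGGCGG, bound by Sp and Krüppel-like factors, was found in 7 of 9 windows, against 30.5% of the 33469 windows in the table. The members' windows had a GC content between 51.6% and 83.2%, with a median of 58.4%, where the median of all windows was 51.2%. The background windows were not matched to the members by GC content or kind of gene. The GC box shares are therefore not like for like and do not show a trait of type 1 genes. The letters CACTTG, read by the lung factor NKX2-1, and also fitting the broader E-box CANNTG, were found in 1 of 9 windows (11.7% of all windows), that of Cldn18. The AP-1 motif TGANTCA was found in 1 of 9 (6.34% of all windows), that of Emp2. The letters GGAATG, read by TEAD factors, were in 0 of 9 (12.1% of all windows), and so was the TATA box TATAAA (12.9%). A match or its lack in these windows says nothing about binding. Shown are the defining gene Ager, which held none of the motifs, Pdpn and Rtkn2 with several GC boxes each, Emp2 with the AP-1 match and Cldn18 with the NKX2-1 match; each runs 5′ to 3′ toward the gene, and capitals mark the matches.
Ager, chr20:4155686-4155935, minus strand: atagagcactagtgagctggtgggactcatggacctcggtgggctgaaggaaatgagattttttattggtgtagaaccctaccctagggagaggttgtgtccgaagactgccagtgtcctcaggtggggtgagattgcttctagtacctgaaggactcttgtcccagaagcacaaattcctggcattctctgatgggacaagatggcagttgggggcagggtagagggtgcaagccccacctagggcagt
Pdpn, chr5:160918960-160919209, minus strand: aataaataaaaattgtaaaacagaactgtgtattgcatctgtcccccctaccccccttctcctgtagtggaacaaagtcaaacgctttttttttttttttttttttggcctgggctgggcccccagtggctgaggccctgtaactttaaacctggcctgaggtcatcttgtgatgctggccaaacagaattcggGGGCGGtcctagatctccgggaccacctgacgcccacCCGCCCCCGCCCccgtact
Rtkn2, chr20:20608863-20609112, minus strand: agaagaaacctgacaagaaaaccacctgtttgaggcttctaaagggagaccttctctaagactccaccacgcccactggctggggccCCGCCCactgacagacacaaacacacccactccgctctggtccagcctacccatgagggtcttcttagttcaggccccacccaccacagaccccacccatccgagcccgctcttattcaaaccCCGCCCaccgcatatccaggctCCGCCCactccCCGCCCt
Emp2, chr10:5866619-5866868, plus strand: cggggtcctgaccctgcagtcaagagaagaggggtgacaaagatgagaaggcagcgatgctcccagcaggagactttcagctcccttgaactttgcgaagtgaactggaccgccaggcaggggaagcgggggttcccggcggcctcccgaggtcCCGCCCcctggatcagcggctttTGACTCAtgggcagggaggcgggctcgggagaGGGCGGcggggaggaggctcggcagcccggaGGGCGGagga
Cldn18, chr8:109144620-109144869, minus strand: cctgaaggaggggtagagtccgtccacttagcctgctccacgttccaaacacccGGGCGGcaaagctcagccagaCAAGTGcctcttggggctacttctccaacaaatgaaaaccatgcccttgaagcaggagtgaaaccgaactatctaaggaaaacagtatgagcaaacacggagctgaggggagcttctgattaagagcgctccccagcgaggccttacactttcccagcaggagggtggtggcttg

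The arrays were alike in their centre, with medians between 7.64 and 7.69 on the log2 scale, but the SD of an animal's values over all probes ran from 1.76 to 1.93, and controls 2 and 3 had the smallest. MetS animal 1 and control 1 each had 2 arrays, averaged before anything else, so 9 arrays stand for 7 animals, whose number limits the precision of every value. The tissue label held: the lung's defining epithelial genes were bright in every animal, with the type 2 cell surfactant gene Sftpc at 13.9 in both groups. The 10 type 1 genes lay between the 97.3rd and the 99.8th percentile of probe means, with means from 11.36 for Gprc5a to 13.20 for Ager, where the brightest probe reached 14.14. So near the top of the scale an array compresses differences, and how far that acted here was not tested. In whole lung, fewer type 1 cells and less RNA per cell cannot be told apart.

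The question was whether lungs of rats with MetS differed from controls in these genes. They were nearly equal: the 10 differences lay between -0.017 for Ager and 0.099 for Akap5 on the log2 scale, with a median of 0.029 against 0.038 over all named genes. MetS was higher for 7 of 10 and lower for 3, where 53.3% of all probes were higher. With limma 0 of 10 passed at an adjusted p under 0.05 (0% of all probes did) and 0 of 10 at an unadjusted p under 0.05, where 13.7% of all probes did; the smallest adjusted p was 0.692 and the smallest unadjusted p 0.416, both for Cldn18. The values of the 3 MetS and the 4 control animals overlapped for all 10 genes, where 11.7% of all probes had groups that did not overlap, 4.88% with MetS higher and 6.84% with MetS lower. The 95% interval of the difference stayed within a 1.5-fold change either way for all 10 genes and within 1.3-fold for 9, all but Akap5.

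**Figure D1:**
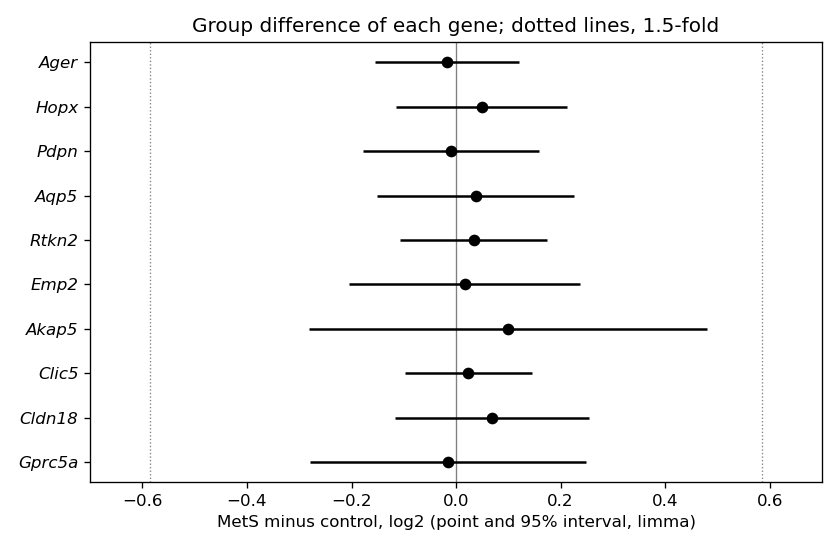
Difference between MetS and control lungs for each of the 10 genes on the log2 scale (points, MetS minus control over 3 and 4 animals; bars, 95% interval from limma; dotted lines, a 1.5-fold change). Every interval includes 0 and lies between the dotted lines, and that of Akap5 is the widest.

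Ager codes for the receptor for advanced glycation end products, an immunoglobulin-type surface protein that in healthy lung sits on the basal side of type 1 cells. It stood at 13.24, 13.16 and 13.16 in MetS animals 1 to 3 and at 13.16, 13.19, 13.19 and 13.28 in controls 1 to 4. MetS animal 1 and control 4 were the high ones, and MetS animals 2 and 3 sat level with control 1, the lowest control. The means were 13.186 ± 0.047 (SD, n = 3) and 13.204 ± 0.051 (SD, n = 4), a difference of -0.017 with a 95% interval from -0.16 to 0.12, or 0.898-fold to 1.09-fold (limma, adjusted p = 0.902).

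Pdpn codes for podoplanin, the mucin-like glycoprotein of the apical type 1 membrane, also made by lymphatic endothelium and mesothelium. Its values were 13.01, 12.83 and 12.98 in MetS and 12.91, 12.88, 13.04 and 12.96 in controls. MetS animal 2 was lowest and control 3 highest, so the groups interleaved. The difference was -0.009 with an interval from -0.18 to 0.16 (limma, adjusted p = 0.958). The 5 lymphatic genes measured, from cells that also make podoplanin, had means between 6.17 and 10.72, with 3 higher and 2 lower in MetS, a median difference of 0.005 and 0 with an unadjusted p under 0.05. The lineage factor gene Prox1 stood at 6.11 ± 0.12 in MetS and 6.21 ± 0.15 in controls, the receptor gene Flt4 at 7.87 ± 0.16 and 7.73 ± 0.05, and the hyaluronan receptor gene Lyve1 at 10.75 ± 0.48 and 10.69 ± 0.28. The part of lymphatic cells in the Pdpn values was not tested.

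Cldn18 codes for a tight junction claudin that limits leak between alveolar cells; type 2 cells make it too. It read 13.04, 12.84 and 13.01 in MetS and 12.87, 12.82, 12.87 and 13.02 in controls. MetS animals 1 and 3 and control 4 formed the high end and MetS animal 2 sat with the lower controls. At 12.964 ± 0.111 against 12.896 ± 0.087 the difference was 0.068, with an interval from -0.12 to 0.25 (limma, adjusted p = 0.692). A different form of claudin 18 is made by the stomach, and the 6 stomach genes measured had means between 5.30 and 8.08.

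Aqp5, the water channel of the apical type 1 membrane, also made by gland cells, was at 12.04, 11.81 and 12.04 in MetS and at 11.88, 11.91, 12.02 and 11.90 in controls. MetS animals 1 and 3 were the 2 highest and MetS animal 2 the lowest of the 7. The difference was 0.037 with an interval from -0.15 to 0.23 (limma, adjusted p = 0.837).

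Emp2 codes for a small membrane protein with 4 membrane spans that acts on integrins and caveolae. It read 12.22, 11.89 and 12.15 in MetS and 12.00, 12.01, 12.16 and 12.11 in controls. Again MetS animal 1 was highest and MetS animal 2 lowest, and all controls lay between them. Within MetS the values spanned 0.333, against 0.163 in controls, and the group difference was 0.017 with an interval from -0.20 to 0.24 (limma, adjusted p = 0.941).

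Clic5, a chloride intracellular channel family protein tied to the actin cortex, was the steadiest of the 10 genes. It read 13.02, 13.02 and 12.98 in MetS and 12.98, 12.97, 12.96 and 13.01 in controls, a span of 0.054 over all animals. Its residual SD between animals, 0.021, was at the 0.6th percentile of all probes. The difference was 0.024 with an interval from -0.10 to 0.15 (limma, adjusted p = 0.841).

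Among the signalling genes Akap5, which codes for an anchor that holds protein kinase A and calcineurin at the membrane, varied most. Its values were 12.23, 12.00 and 11.63 in MetS and 11.85, 11.59, 11.93 and 12.05 in controls. MetS animal 1 was highest, while MetS animal 3 and control 2 were the 2 low ones, and the span over the 7 animals was 0.640, or 1.56-fold, with 0.606 of it within MetS alone. The means were 11.95 ± 0.31 and 11.86 ± 0.19, and the difference of 0.099 had an interval from -0.28 to 0.48, or 0.822-fold to 1.39-fold (limma, adjusted p = 0.783). It was 0.26 without MetS animal 3 and 0.004 without controls 2 and 3, and its direction turned to -0.040 without MetS animal 1 and to -0.17 once the per-animal SD over all probes was a covariate.

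Gprc5a, an orphan receptor induced by retinoic acid, read 11.56, 11.09 and 11.40 in MetS and 11.44, 11.38, 11.27 and 11.38 in controls. MetS animal 1 and MetS animal 2 were the ends of the whole range, 0.469 apart, and the controls spanned 0.163. The difference was -0.016 with an interval from -0.28 to 0.25 (limma, adjusted p = 0.955). Without MetS animal 2 it was 0.11 and without MetS animal 1 -0.12.

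Rtkn2, which codes for an intracellular signalling protein, stood at 11.94, 11.91 and 11.98 in MetS and at 11.89, 11.83, 11.95 and 11.96 in controls. All MetS values lay above controls 1 and 2, and controls 3 and 4 lay among them. The difference was 0.034 with an interval from -0.11 to 0.17 (limma, adjusted p = 0.80).

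Hopx codes for a homeodomain protein that does not bind DNA and marks type 1 cells from their first appearance. It read 13.16, 13.05 and 13.03 in MetS and 13.13, 13.04, 12.99 and 12.94 in controls. MetS animal 1 and control 1 were high and control 4 was lowest, whereas control 4 was highest for Ager. The difference was 0.049 with an interval from -0.11 to 0.21 (limma, adjusted p = 0.749).

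**Figure D2:**
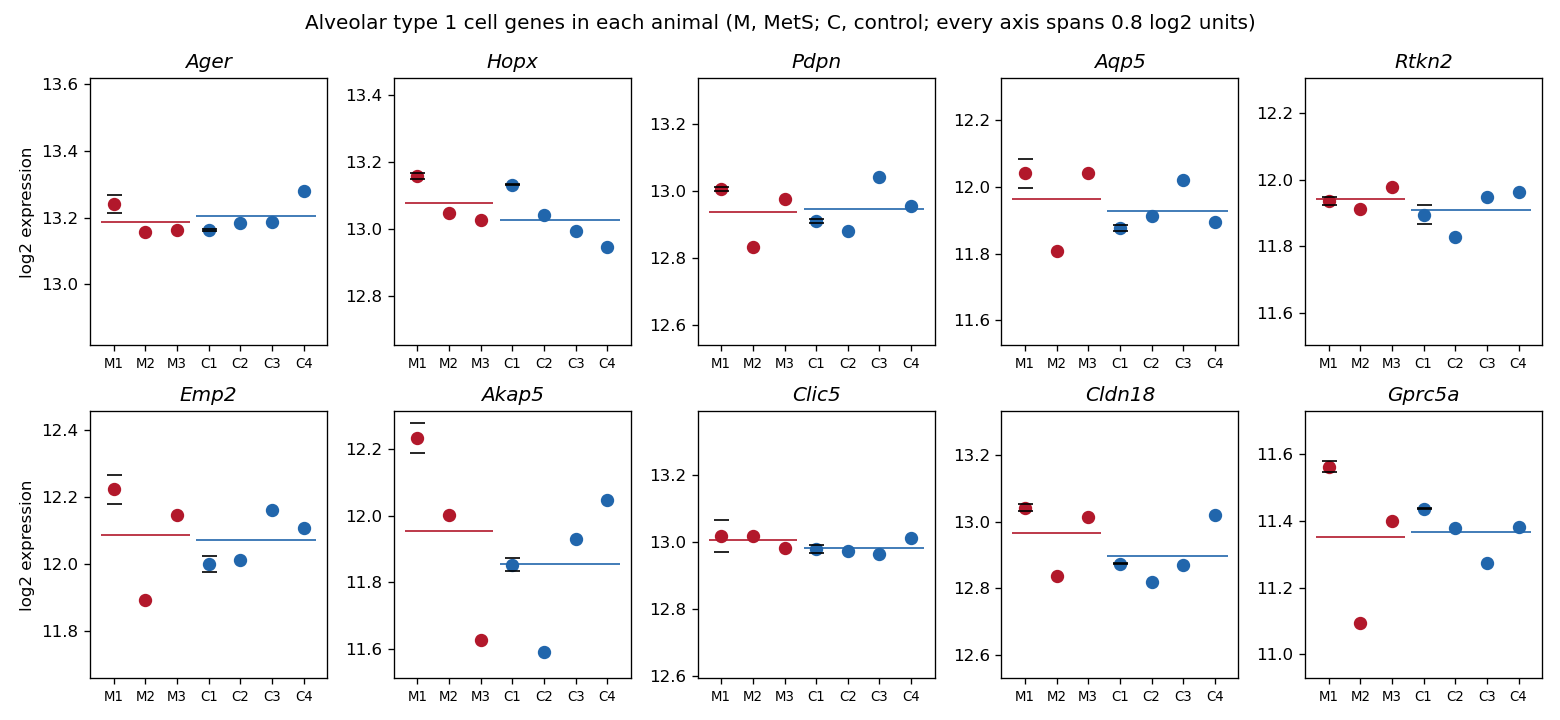
Log2 expression of the 10 genes in each animal (M1 to M3, MetS, red; C1 to C4, controls, blue; horizontal lines, group means; black dashes, the 2 arrays of M1 and of C1, whose mean is the point). All panels span 0.8 log2 units; Clic5 is nearly flat at 12.96 to 13.02, while Akap5 spans 0.640 and Gprc5a 0.469.

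The arrays repeated on MetS animal 1 and on control 1 give a rough view of measurement error, from 1 pair of arrays each. For MetS animal 1 the gap between the 2 arrays ran from 0.011 for Pdpn to 0.096 for Clic5, with a median of 0.044 over the 10 genes (0.061 over all probes). For control 1 it ran from 0.0008 for Gprc5a to 0.057 for Rtkn2, with a median of 0.017 (0.075 over all probes). For 7 genes both gaps were smaller than the SD between animals of a group. A gap between 2 arrays is not an SD, so this sets only rough sizes side by side and does not part measurement from animals. The exceptions were Ager, Rtkn2 and Clic5, and for Clic5 the 0.096 gap between arrays of MetS animal 1 was wider than the 0.054 span of all 7 animals. For 7 of the 10 genes the larger gap also exceeded the difference between the groups. Akap5 and Gprc5a differed between animals by far more than between arrays: the gaps were 0.092 and 0.038 for Akap5 and 0.034 and 0.0008 for Gprc5a.

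**Figure D3:**
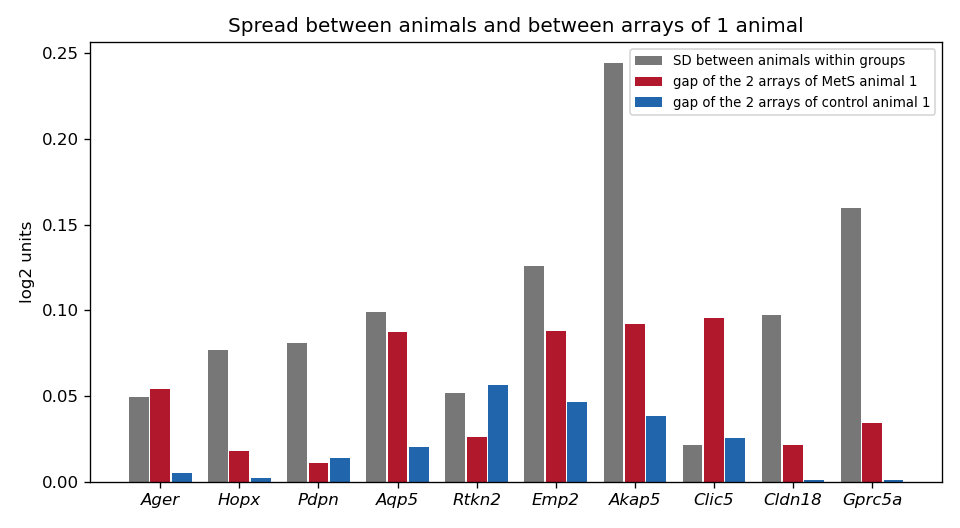
For each gene, the residual SD between animals of a group (grey) beside the gap between the 2 arrays of MetS animal 1 (red) and of control 1 (blue), in log2 units. The grey bar is the tallest for 7 genes. For Clic5, Ager and Rtkn2 a gap between arrays of 1 animal is as large or larger. A gap and an SD are unlike measures, so the bar heights compare only roughly.

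Deviations from the control mean of each gene are given here by animal. MetS animal 1 was above the control mean for all 10 genes, the highest of the 7 animals for 5 of them, and deviated by 0.127 on average. MetS animal 2 was the lowest of the 7 for 5 genes, Ager, Pdpn, Aqp5, Emp2 and Gprc5a, and deviated by -0.059, next to -0.056 in control 2, which was lowest for 3. MetS animal 3 deviated by 0.017, control 1 by -0.007, control 3 by 0.021 and control 4 by 0.042. So all 10 genes were up in MetS animal 1, the animal whose values over all probes had the widest SD, 1.93. The next widest SD, 1.90, was that of MetS animal 2, and the smallest, 1.76, that of control 3. A link between this SD and the type 1 values was not tested. Without MetS animal 1 the median difference went from 0.029 to -0.021 and 6 of 10 genes were lower, and without MetS animal 2 it was 0.069 and 9 of 10 were higher.

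Markers of other cells moved with MetS animal 1. The 4 measured mesothelial genes, which mark the pleural lining, averaged 0.553 above the control mean in that animal, 0.203 in control 1, -0.303 in MetS animal 3 and -0.215 in control 3. The pleural glycoprotein gene Msln read 10.98, 9.98 and 9.58 in MetS and 10.28, 10.15, 9.88 and 10.02 in controls. Over the groups the mesothelial genes did not separate, with 3 of 4 higher and a median difference of 0.086. Of the 4, 0 had an unadjusted p under 0.05, where 13.7% of all probes did. Blood capillary genes ran the other way in the same animal: the 10 measured averaged -0.225 in MetS animal 1, -0.073 in control 1, 0.174 in MetS animal 3 and 0.159 in control 4. In MetS animal 1 and control 1 alike 9 of 10 were below the control mean, and in control 3 8 of 10. The endothelial junction gene Cdh5 read 10.78, 11.03 and 11.26 in MetS and 10.97, 11.17, 11.14 and 11.26 in controls. The part that tissue make-up had in the type 1 values was not tested.

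**Figure D4:**
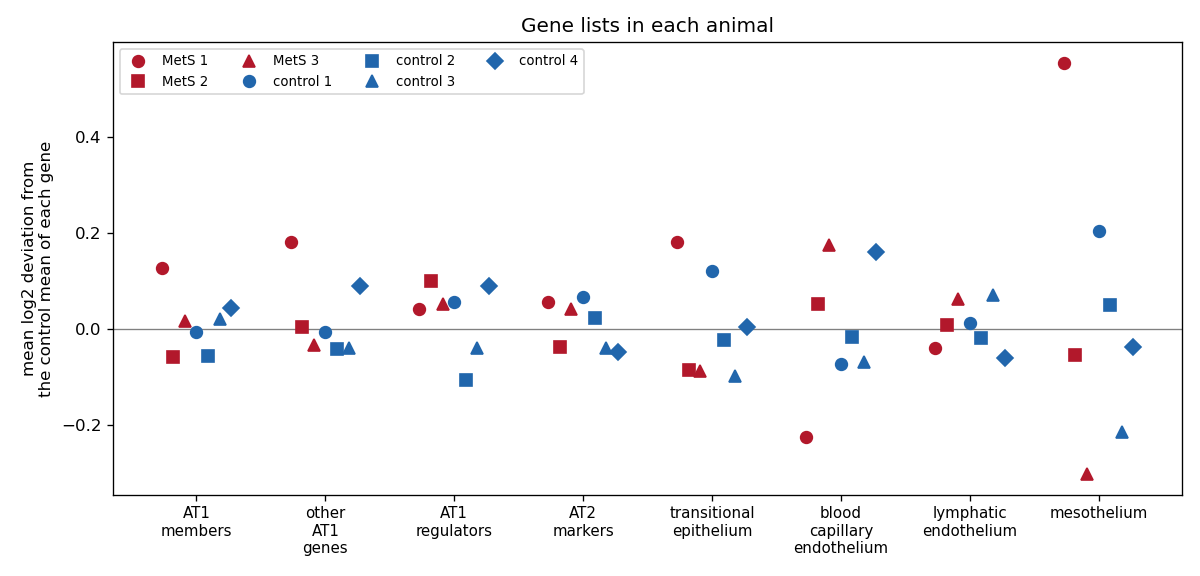
Mean log2 deviation of 8 gene lists from the control mean of each gene, in each animal (red, MetS; blue, controls; the marker shape gives the animal's number). MetS animal 1 stands highest for the 10 type 1 genes (AT1 members, 0.127), the other type 1 genes (0.180), the transitional genes (0.181) and the mesothelial genes (0.553), and lowest for blood capillary genes (-0.225).

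Of 28 further genes known from type 1 cells 24 were measured, and 0 of them had an unadjusted p under 0.05 (13.7% of all probes did). MetS was higher for 17 and lower for 7, with a median difference of 0.058. The main caveolin gene Cav1, abundant in type 1 and endothelial cells, read 13.41, 13.35 and 13.37 in MetS and 13.29, 13.32, 13.32 and 13.29 in controls. It was the 1 gene of the 24 whose groups did not overlap (limma, difference 0.070, adjusted p = 0.546), beside 11.7% of all probes. Igfbp2, an insulin-like growth factor binding protein of mature type 1 cells, read 8.03, 7.59 and 7.29 in MetS and 7.29, 7.35, 7.47 and 7.54 in controls, with MetS animal 1 well above the rest. Vegfa, the growth factor by which type 1 cells signal to capillaries, stood at 11.91 ± 0.11 and 11.92 ± 0.14. Pxdc1 had the smallest p of this list, at 10.37 ± 0.07 against 10.15 ± 0.19 (limma, unadjusted p = 0.0846, adjusted p = 0.412). Col4a3, a collagen chain of the shared basement membrane, stood at 9.30 ± 0.10 against 9.17 ± 0.06, Icam1, an adhesion molecule of the type 1 surface, at 11.14 ± 0.11 against 11.28 ± 0.07, and the tetraspanin gene Tspan8 at 11.73 ± 0.08 against 11.59 ± 0.12.

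Transcription factors and signalling genes tied to alveolar cell fate were measured for 11 of 14 listed. The list was not limited to genes that promote type 1 fate, so its direction is not a direction of that fate. Of the 11, 9 had a higher and 2 a lower MetS mean (median 0.069). An unadjusted p under 0.05 was found for 0 of 11, beside 13.7% of all probes. Yap1, the Hippo pathway co-activator needed for type 1 fate, read 9.54, 9.60 and 9.48 in MetS and 9.46, 9.33, 9.28 and 9.44 in controls. Its lowest MetS value lay just above its highest control, and it was the 1 gene of 11 whose groups did not overlap, beside 11.7% of all probes (limma, difference 0.16 with an interval from -0.003 to 0.33, adjusted p = 0.368). Its DNA-binding partner Tead1 stood at 10.31 ± 0.04 against 10.24 ± 0.06. Nkx2-1, the lung lineage factor, stood at 10.06 ± 0.10 against 9.99 ± 0.05, Klf5, a factor of alveolar epithelial fate, at 9.96 ± 0.12 against 9.82 ± 0.19, and Foxa1, a pioneer factor of lung epithelium, at 7.53 ± 0.04 against 7.42 ± 0.12.

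Type 2 cells and the transitional state were compared next. Of 12 type 2 cell genes 8 were higher and 4 lower, with a median of 0.026 and 1 with an unadjusted p under 0.05, beside 13.7% of all probes. That gene was Sftpd, a collectin of surfactant, at 12.25, 12.15 and 12.14 in MetS and 12.11, 12.05, 11.74 and 11.90 in controls (limma, difference 0.23, adjusted p = 0.363). The surfactant protein gene Sftpb stood at 13.59 ± 0.11 against 13.58 ± 0.01, the lipid transporter gene Abca3 at 10.89 ± 0.04 against 10.81 ± 0.06, and the surfactant protease gene Napsa at 10.75 ± 0.10 against 10.92 ± 0.18. By animal the type 2 genes deviated between -0.048 and 0.066, and MetS animal 1 was at 0.056 there. Of 11 measured genes of the transitional state 7 were higher and 4 lower, with a median of 0.024. Of the 11, 0 had an unadjusted p under 0.05, beside 13.7% of all probes. By animal the transitional genes averaged 0.181 above the control mean in MetS animal 1, the highest of the 7, and 0.119 in control 1. They averaged -0.087 in MetS animals 2 and 3 and -0.099 in control 3. The mesothelial genes were also highest in MetS animal 1 and next in control 1. The part of other cell types in the transitional values was not tested. Krt8, the keratin of that state, read 10.64, 10.53 and 10.34 in MetS and 10.67, 10.42, 10.30 and 10.52 in controls, with both groups over nearly the same span. The tight junction gene Cldn4 stood at 8.39 ± 0.08 against 8.55 ± 0.14 and the cell cycle inhibitor gene Cdkn1a at 9.37 ± 0.51 against 9.26 ± 0.18. Of the airway and gland genes 2 of 7 were higher and 5 lower. Of the 7, 1 had an unadjusted p under 0.05, beside 13.7% of all probes. It was the secretory airway gene Scgb3a1, at 10.35, 10.29 and 9.90 in MetS and 11.70, 12.47, 11.44 and 10.27 in controls (limma, adjusted p = 0.330).

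The direction of most of these small differences depended on the setting. Hopx and Rtkn2 were higher in MetS in all 19 alternative settings, and each of the other 8 genes changed sign in at least 1 of them. Some settings only filtered probes or changed how spread was estimated, so no sign could turn in them. With the per-animal SD over all probes as a covariate 5 of 10 genes were higher and the median was -0.002, whereas 8 of 10 were higher, with a median of 0.012, without controls 2 and 3. That SD was 1.93, 1.90 and 1.88 in MetS and 1.85, 1.77, 1.76 and 1.88 in controls. It partly follows the group, so this fit cannot fully tell the 2 apart. Across the 19 settings 0 of 10 genes passed at an adjusted or an unadjusted p under 0.05, and the largest absolute difference was 0.26, for Akap5 without MetS animal 3.

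**Figure D5:**
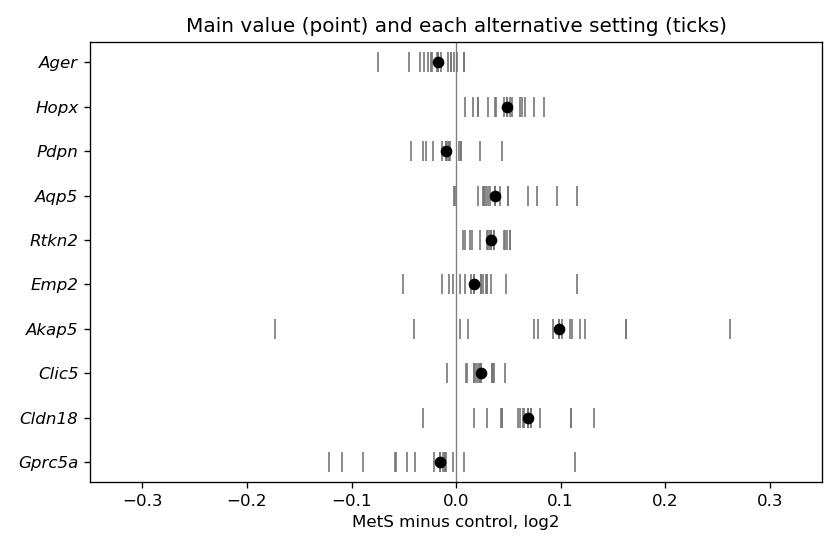
Difference between MetS and control for each gene as reported (point) and in each of the 19 alternative settings (ticks), on the log2 scale. The ticks lie between -0.17 and 0.26, both ends from Akap5, and stay on one side of 0 for Hopx and Rtkn2.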

How the data were processed

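Per the labels' protocols, lung RNA was isolated with Trizol, kept at an RNA integrity number of at least 6 and labelled with biotin from 50 ng. The authors deposited log2 expression values, 1 column per array. The submitters' processing notes name RMA, limma and R 2.11.0 without saying what each did, and a genome build was not given in the sources used here. Of 28826 probes 15209 had 1 gene symbol in the platform's annotation, 306 several and 13311 none; symbols were updated through RefSeq gene identifiers, and the probe with the highest mean stood for a gene.

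The 2 arrays of an animal were averaged. MetS minus control was fitted over all probes with lmFit and eBayes (limma 3.58.1, R 4.3.3, 7.28 degrees of freedom), with Benjamini-Hochberg adjustment over all 28826 probes. The fit was tested on simulated data with planted changes much larger than the differences of the 10 genes. That test does not show what the fit can find at their size. Each p-value sets a difference against the spread between these animals, which eBayes moves toward the spread common to all probes. For Clic5 the residual SD was 0.021 and the standard error used 0.052, so its interval rests largely on the other probes. Members and lists, and the alternatives, were chosen with earlier results of these data known, though the rule for members uses no measured value; lists are described by counts and not tested. All 10 members are named; of each further list, the up to 4 genes with the smallest p, those with an unadjusted p under 0.05 and no overlap, and 9 defining genes could be named, and the text names some of them. Promoters were searched with Python 3.11.15 and pandas 2.3.3, and figures drawn with matplotlib 3.10.9. Proteins were not analysed here.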

Additional observations from a re-analysis of the deposited data

Results flagged for a closer look

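Of 53 genes checked for a control animal far from the other 3, 1 stood out: Tp63, the basal cell factor of the airways, read 6.21 in control 4, while the other controls lay between 6.49 and 6.54. About 1 group in 20 stands out this way by chance. None of the 10 type 1 genes did. The 3 MetS animals are too few for this check.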

How the results depend on the processing

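In 19 settings each of the 10 genes was refitted, 190 values in all, and 0 were called. The sign was kept in 170 and turned in 20. Settings that only filtered probes or changed the eBayes step left the differences as they were, so no sign could turn in them. The replicate block gave the same differences as leaving out control 4, so these settings are not independent checks. With 1 animal left out in turn the difference ran from -0.045 to 0.0076 for Ager, -0.043 to 0.044 for Pdpn, -0.0022 to 0.12 for Aqp5, -0.051 to 0.12 for Emp2, -0.040 to 0.26 for Akap5 and -0.12 to 0.11 for Gprc5a. Ager turned to 0.0007 when the arrays were quantile normalized again and to 0.0076 with the replicate block. Pdpn turned to 0.0029 with centring on medians, to 0.0049 with the SD of each animal as a covariate and to 0.005 without controls 2 and 3. With the SD covariate, which partly follows the group, Akap5 turned to -0.17, Clic5 to -0.0087 and Cldn18 to -0.032. The causes were not tested. The median difference of the 10 genes stayed within 0.066 of its reported value, 0.029, in all 19 settings. That bound is the SD within groups of the animals' median deviations. It is wider than the reported value, so it says little about stability. The sign turned inside it, to -0.021 without MetS animal 1 and to -0.002 with the SD covariate. Groups did not overlap for Ager without MetS animal 1, Aqp5 without MetS animal 2, and Clic5 without MetS animal 3 or control 4. That is 1 of 10 genes in each of these settings, where groups of fewer animals separate more easily. The share of all probes was not counted in them, and was 11.7% with all 7 animals.

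The replicate number as a block (replicate block) called 2017 of all probes and 0 of the 10 genes; in the other 18 settings 0 probes were called. Same-numbered animals did not all deviate together (r = 0.271, -0.118 and 0.339 over all probes). Between MetS and control animals of unlike number r ran from -0.421 to 0.385. The labels do not say that the numbers pair animals, so they were not taken as pairs. Control 4 has no MetS animal of its number, so it adds nothing to the differences of the block fit. Every gene had 1 probe, so averaging the probes of a gene was not a separate setting. The number of probes with an unadjusted p under 0.05 was 3959 as reported and ran from 1023 with the SD covariate to 6747 with the block.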
